A study of Homo sapiens with 27 samples.

Results

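The comparison described here set PC-3 cells under cycling hypoxia against PC-3 cells under chronic hypoxia, 3 arrays against 3, which is 6 of the 27 arrays of the series. The 6 arrays were taken by their labels, and the comparison was followed across all genes measured. The series profiled gene expression in PC-3, SK-OV-3 and WM793B cells on Human Genome U133 Plus 2.0 arrays, to ask whether fluctuating and constant oxygen deprivation change tumor cells differently. PC-3 is an established line from human prostate cancer, SK-OV-3 from ovarian cancer and WM793B from melanoma. PC-3 cells of the chronic hypoxia group were kept at 1% oxygen for 72 h. Those of the cycling hypoxia group were switched during those 72 h between 1% oxygen, for 4 h or 12 h at a time, and 21% oxygen, for 4 h at a time, and 3 control arrays came from cells held at 21% oxygen for the whole time. All PC-3 cells grew in RPMI medium with fetal bovine serum. SK-OV-3 and WM793B cells had the same 3 oxygen treatments but other media, McCoy's medium for SK-OV-3 and Tu medium with less serum and added insulin for WM793B. Differences between the lines and between their media therefore cannot be told apart. The schedule of cycling hypoxia ended with reoxygenation, so that an effect of the repeated cycles and an effect of the last 4 h at 21% oxygen cannot be told apart. The arrays of a group are labelled as biological replicas of 1 cell line, so the p-values measure the spread between cultures of that line.

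Cells answer low oxygen chiefly through the hypoxia-inducible factors, HIF. Their alpha subunits are hydroxylated by oxygen-dependent prolyl hydroxylases and destroyed in oxygen-rich cells. In low oxygen they persist, pair with ARNT and switch on genes for glucose uptake, glycolysis, blood vessel growth and pH control, and the proteins disappear within minutes when oxygen returns. Severe or lasting hypoxia also engages the ATF4 branch of the stress response and slows the synthesis of ribosomes and of DNA.

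Within each group of PC-3 arrays the correlation over all probe sets was 0.993 or higher after rounding. Of the markers of prostate epithelium and PC-3 cells, 8 of 12 with a probe set stood above a log2 signal of 5 on every array of both groups, among them KRT8, KRT18, EPCAM and VIM, while KLK2, FOLH1 and ACP3 lay below it. None of 9 leukocyte and erythroid markers passed 5 on any of the 6 arrays, with summed signals of 20.52 to 20.57 under cycling and 20.52 to 21.00 under chronic hypoxia. Of 11 fibroblast and endothelial markers, 4 stood above 5 on every array of both groups, COL1A1, COL3A1, PECAM1 and KDR. So did 1 of 9 melanocyte markers, MITF. Of 6 ovarian markers, 2 did so on the cycling and 1 on the chronic arrays. The 75th percentile of the signal was 6.37 to 6.40 on the cycling and 6.19 to 6.25 on the chronic arrays. The arrays differed in one control signal. The control probe sets for 18S ribosomal RNA read 7.42 and 7.25 on cycling replicates 1 and 2, 9.73 on cycling replicate 3 and 10.04 to 11.03 on the chronic arrays. The cycling arrays of the other lines divided by the same replicate numbers, with 10.79, 10.62 and 12.63 in SK-OV-3 and 5.01, 4.99 and 8.16 in WM793B cells, against 12.26 to 12.65 and 4.89 to 6.97 on their chronic arrays. Counts for the gene lists are therefore also given for cycling replicate 3 alone against the chronic arrays, where they moved by over 1.5 times or carry a result.

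Between cycling and chronic hypoxia, 7518 of 19800 filtered probe sets (38%) differed at an adjusted p under 0.05. Of these, 4968 (25.1%) were higher and 2550 (12.9%) lower under cycling hypoxia. A difference of at least 1.5-fold was met by 2246 (11.3%) higher and 1006 (5.08%) lower probe sets, and one of at least 2-fold by 605 (3.06%) and 363 (1.83%). Read by 1 probe set per gene, 2974 of 10021 genes (29.7%) were higher and 1267 (12.6%) lower, with 323 (3.22%) and 132 (1.32%) at least 2-fold. The balance between the directions depended on the scaling of the arrays. Higher probe sets made up 66.1% of the calls on the deposited values, 53.9% after quantile normalization and 34.9% after centring the arrays on their medians. At 2-fold these shares were 62.5%, 41.9% and 37.4%. Centring moved the median difference of all genes from 0.09 to -0.08 (log2), and quantile normalization moved it to 0.02. Directions below are those of the deposited values, and a list described by its counts whose median changes sign with the scaling is named as such. The background for list counts is the share over all genes, 29.7% higher and 12.6% lower. Without the 2 cycling arrays of low 18S signal, 3732 probe sets were called, 2474 higher and 1258 lower.

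Most genes known to be induced by HIF were lower under cycling hypoxia. Of 42 listed, 38 were measured, and 32 of these fell against a background of 12.6%, while 1 rose and 5 were not called. At least 2-fold falls were called for 18 of them. The median difference of the list was -0.88 (log2), beside 0.09 over all genes tested. In 34 of the 38 the arrays of the groups did not overlap, where the background was 35.8% for cycling above and 16.8% for cycling below. The mean of cycling hypoxia lay between those of control and chronic hypoxia for 33 of the 38 genes, and for 65% of all genes. Without the 2 cycling arrays of low 18S signal, 28 of the 38 were lower and none was higher.

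**Figure D1:**
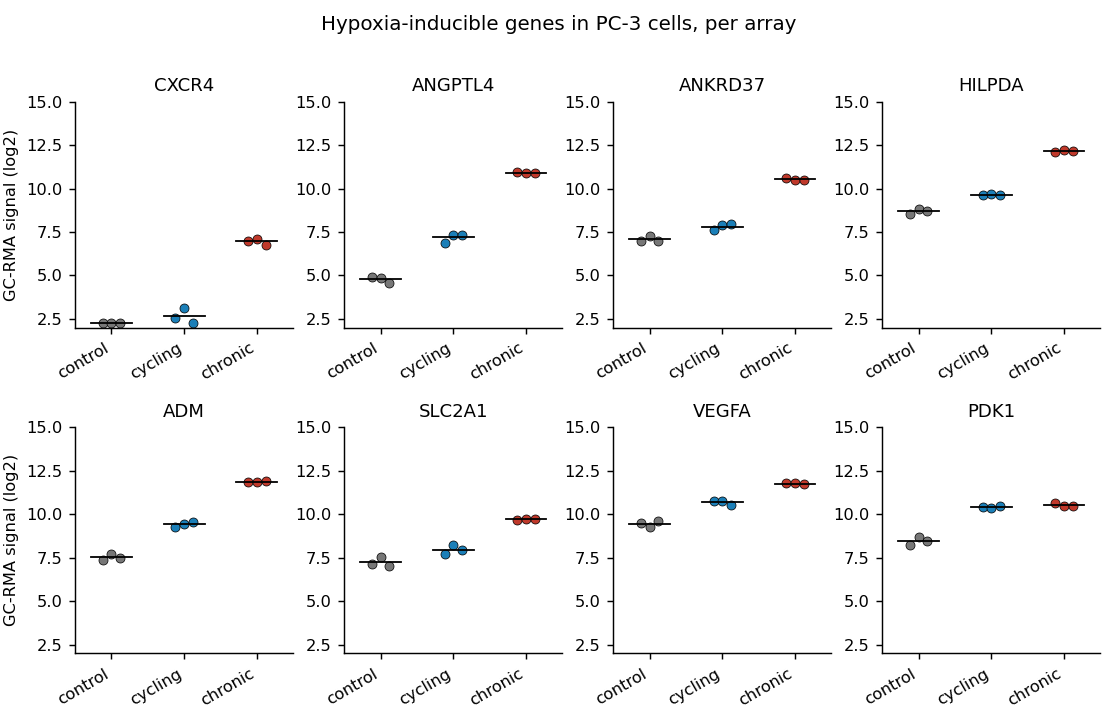
GC-RMA signal (log2, vertical axis) of 8 hypoxia-inducible genes on the 3 control, 3 cycling and 3 chronic hypoxia arrays of PC-3 cells, with points for arrays and bars for group means. From CXCR4 to VEGFA every cycling array lies below every chronic one, whereas for PDK1 the cycling and chronic arrays overlap.

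CXCR4, the receptor of the chemokine CXCL12, showed the largest fall of the 10021 genes. Its log2 signal was 2.58, 3.11 and 2.28 on the cycling arrays and 6.98, 7.12 and 6.77 on the chronic arrays. Cycling replicate 3 and the control arrays were at 2.28, the lowest value that the processing gave to any array. The difference was -4.30 with a standard error of 0.20 (19.7-fold, adjusted p = 4.62e-05), and the floor limits its size. ACKR3, a second receptor of the same chemokine, read 6.85, 7.24 and 6.75 under cycling and 9.81, 9.96 and 9.68 under chronic hypoxia, a difference of -2.87 (SE 0.23, adjusted p = 0.000203). Control arrays of ACKR3 lay lower than either group, at 4.13 to 4.99.

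ANGPTL4, a secreted inhibitor of lipoprotein lipase, read 6.88, 7.35 and 7.34 on the cycling and 10.97, 10.87 and 10.88 on the chronic arrays. It fell by 3.72 on the log2 scale (SE 0.14, 13.1-fold, adjusted p = 3.62e-05), and control arrays lay at 4.56 to 4.89. ANKRD37, an ankyrin repeat protein, read 7.60, 7.87 and 7.96 against 10.61, 10.51 and 10.52. All 3 cycling arrays were close to the control arrays of 6.98 to 7.29, and the difference was -2.73 (SE 0.12, adjusted p = 4.25e-05). HILPDA, which coats lipid droplets, read 9.63, 9.69 and 9.64 against 12.08, 12.19 and 12.14, a difference of -2.48 (SE 0.07, adjusted p = 1.24e-05). ADM, the vasodilating peptide adrenomedullin, read 9.24, 9.44 and 9.58 against 11.83, 11.86 and 11.92 (-2.45, SE 0.11, adjusted p = 4.52e-05). The same separation held for DEPP1, an autophagy-linked target of FOXO factors, with 7.82 to 8.06 against 11.18 to 11.21 (-3.23, SE 0.08, adjusted p = 7.23e-06).

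To show the sequence next to these values, the 250 bases before the annotated start of CXCR4, ANGPTL4 and ANKRD37 are printed, because they include the largest fall of the comparison and differ in how they hold the core of the hypoxia response element. They are RefSeq sequences of GRCh38.p14, written 5′ to 3′ on the strand of the gene, and capitals mark ACGTG or GCGTG on either strand. CXCR4 has 3 annotated windows, of which the first listed is shown.
CXCR4 (chr2:136118150-136118399, minus strand): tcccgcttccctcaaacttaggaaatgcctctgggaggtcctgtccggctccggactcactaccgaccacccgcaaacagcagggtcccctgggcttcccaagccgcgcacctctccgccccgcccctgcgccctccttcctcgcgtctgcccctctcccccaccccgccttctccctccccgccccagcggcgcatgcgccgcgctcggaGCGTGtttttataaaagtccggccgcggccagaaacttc
ANGPTL4 (chr19:8363905-8364154, plus strand): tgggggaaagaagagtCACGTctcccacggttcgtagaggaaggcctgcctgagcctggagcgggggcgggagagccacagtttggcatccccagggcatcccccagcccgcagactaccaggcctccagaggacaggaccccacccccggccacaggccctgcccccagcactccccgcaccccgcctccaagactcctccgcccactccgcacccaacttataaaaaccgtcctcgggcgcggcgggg
ANKRD37 (chr4:185396591-185396840, plus strand): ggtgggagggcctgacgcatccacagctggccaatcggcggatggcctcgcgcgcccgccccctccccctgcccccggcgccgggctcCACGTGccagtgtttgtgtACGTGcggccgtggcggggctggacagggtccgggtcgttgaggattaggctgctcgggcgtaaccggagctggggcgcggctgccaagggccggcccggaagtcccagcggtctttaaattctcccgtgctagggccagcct

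The CXCR4 window held 1 match, which began at position -39 from the start, ANGPTL4 held 1 at position -234, and ANKRD37 held 3, of which 2 overlap in the palindrome CACGTG, a sequence that also fits E-box factors. Windows were on hand for 29 of the 38 measured genes, and 22 of these (75.9%) held the core. It stood in 43.1% of all 27305 windows of this length. Among the 24 genes with a window that fell, 19 held it.

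The glucose transporter SLC2A1 and the phosphofructokinase regulators PFKFB3 and PFKFB4 were lower, while about as many core enzymes fell as were not called. SLC2A1, found in most cells, read 7.72, 8.24 and 7.94 under cycling and 9.68, 9.70 and 9.76 under chronic hypoxia (-1.74, SE 0.16, adjusted p = 0.000309). PFKFB3 and PFKFB4, which make the activator of phosphofructokinase, differed by -2.46 (SE 0.16, adjusted p = 0.000104) and -2.10 (SE 0.06, adjusted p = 1.19e-05). The first enzyme of glycolysis, HK2, differed by -1.35 (SE 0.08, adjusted p = 7.15e-05), although 1 of its 3 probe sets differed by 0.44 the other way and the mean of its probe sets was not called. Of the 14 glycolytic enzymes measured, 6 fell, against a background of 12.6%, 1 rose and 7 were not called. The median was -0.19. The ones not called included GPI (0.01), TPI1 (0.01), PGK1 (0.06), PGAM1 (-0.04) and PKM (-0.08), although dimmer probe sets of PGK1 and PKM were called lower, down to -0.78 and -1.10. LDHA, which the variation filter removed, read 14.30 to 14.40 against 14.36 to 14.46. ENO1 was read by a dim secondary probe set, and its value of -1.23 (adjusted p = 0.00486) is not that of its main transcript signal. From cycling replicate 3 alone, 3 glycolytic enzymes fell and none rose, and 10 fell after centring.

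PDK1, a kinase that keeps pyruvate out of the mitochondrial citric acid cycle, was not called. It read 10.43, 10.34 and 10.49 on cycling and 10.64, 10.47 and 10.49 on chronic arrays, against 8.25 to 8.71 on control arrays (difference -0.11, SE 0.11, adjusted p = 0.49). Of its 3 probe sets, 1 differed by -2.08 and was called. None of the 4 pyruvate dehydrogenase kinases was called by its brightest probe set. For PDK3, at -0.25 by that probe set, 1 of its 4 probe sets was called the other way, higher under cycling. Other induced genes that were not called were the lysyl oxidase LOX (0.32, SE 0.22), the mitochondrial protein FAM162A (-0.05, SE 0.05, with 1 of its dimmer probe sets called lower at -0.99) and the glucose transporter SLC2A3, which lay at the floor. EDN1, the vasoconstrictor endothelin 1, was the exception in direction, at 6.23, 6.67 and 6.63 against 5.94, 5.76 and 6.0 (0.61, SE 0.15, adjusted p = 0.0177). No gene of the list was called higher without cycling replicate 2, cycling replicate 3 or chronic replicate 2, so the EDN1 call was lost then.

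Among further known targets of HIF, the size of the fall depended on the probe set for VEGFA. VEGFA, the main angiogenic growth factor, read 10.77, 10.78 and 10.54 against 11.77, 11.80 and 11.73 (-1.08, SE 0.10, adjusted p = 0.000322) by the brightest of its 4 probe sets. The others were all called lower, by -1.65, -1.90 and -2.03. NDRG1, a stress-induced growth suppressor, differed by -0.66 (SE 0.09, adjusted p = 0.00147), and the mitophagy receptor BNIP3 by -0.45 (SE 0.09, adjusted p = 0.0095). Groups did not overlap for any of these 3 genes.

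The HIF system itself was measured through 5 of 10 listed genes. HIF1A, the oxygen-regulated subunit, read 12.82, 12.67 and 12.75 under cycling and 11.90, 11.74 and 11.73 under chronic hypoxia. Cycling arrays were near the control arrays of 12.91 to 12.97, and the difference was 0.96 (SE 0.06, adjusted p = 8.34e-05). HIF1AN, the asparaginyl hydroxylase that restrains HIF activity, did not pass the variation filter and differed by 0.71 without it (SE 0.11, adjusted p = 0.00785). EPAS1, which encodes HIF-2 alpha, was not called at -0.12 (SE 0.05, adjusted p = 0.119). The prolyl hydroxylase EGLN1 was lower under cycling (-0.63, SE 0.09, adjusted p = 0.00162). ARNT differed by -0.34 (adjusted p = 0.0362) and lost its call when cycling replicate 1 or 3 or any chronic array was left out. Of the histone demethylases that need oxygen, KDM3A and KDM4B fell by 1.56 and 1.07 on the log2 scale (SE 0.04 and 0.09, adjusted p = 7.23e-06 and 0.000209). Both are HIF targets and are also in the list of HIF-induced genes. The background for counts of oxygen-dependent demethylases was 12.6% lower and 29.7% higher. In the list of 11 such enzymes, 5 were lower and 1 higher, and with cycling replicate 3 alone 3 were lower and none higher.

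**Figure D2:**
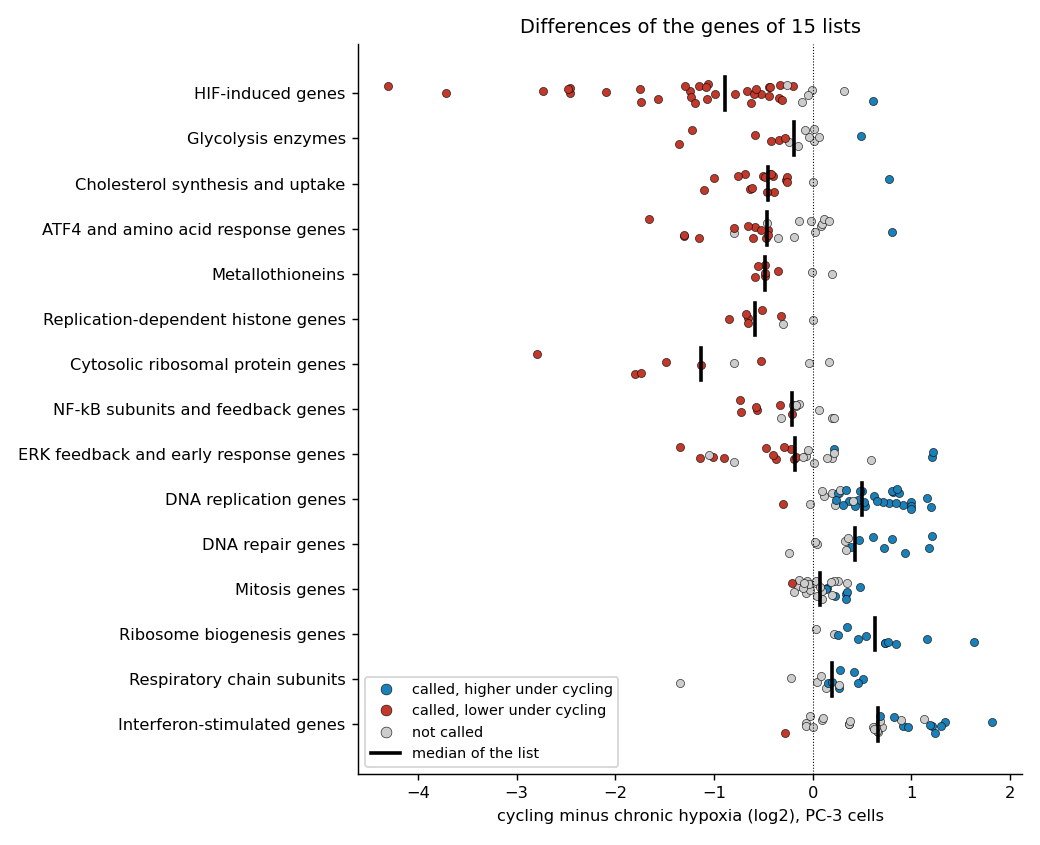
Difference of cycling minus chronic hypoxia (log2, horizontal axis) in PC-3 cells for each measured gene of 15 lists (vertical axis), with colour for the call at an adjusted p under 0.05 and a bar for the median of the list. HIF-induced genes spread from -4.30 to 0.61, whereas DNA replication genes lie between -0.30 and 1.20.

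Most genes of DNA replication were higher under cycling hypoxia. All 35 listed were measured, and 26 rose, against a background of 29.7%, while 1 fell and 8 were not called. The median was 0.50, and for 33 of them the cycling mean lay between control and chronic hypoxia. MCM10, a factor of replication initiation, read 3.82, 3.70 and 3.85 on cycling and 2.57, 2.30 and 2.90 on chronic arrays. The groups did not overlap (1.20, SE 0.15, adjusted p = 0.00103), although both lay under the signal of 5, and raising such values to 5 took the call away. CDC6, the licensing factor of replication origins, read 6.98, 6.83 and 6.62 against 5.88, 5.72 and 5.36 (1.16, SE 0.16, adjusted p = 0.00156). PRIM1, the catalytic primase subunit, read 6.80, 6.73 and 6.74 against 5.80, 5.83 and 5.64 (1.00, SE 0.05, adjusted p = 6.52e-05). The control arrays of PRIM1 were higher than both groups, at 7.94 to 8.01.

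The rise covered most parts of the replication machinery. Of the MCM2 to MCM7 helicase subunits, 5 rose, by 0.46 to 0.62, and MCM7 was not called at -0.03 (SE 0.07). The helicase partners GINS1 and GINS2 differed by 0.81 (SE 0.04) and 0.92 (SE 0.09), and the sliding clamp PCNA by 0.71 (SE 0.09). RFC5, a subunit of the clamp loader, was the one called lower (-0.30, SE 0.07, adjusted p = 0.014), and its other probe sets differed the other way, by up to 0.67. Not called were CDC45 (0.22), CDT1 (0.27), ORC1 (0.11), ORC6 (0.20), POLD1 (0.40), PRIM2 (0.27) and RRM2 (0.09, although its dimmer probe set was called higher at 0.55). On cycling replicate 3 alone 18 rose, and 15 did so in the fit on all 27 arrays. The median stayed above 0 after quantile normalization (0.41) and after centring (0.33).

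Part of the DNA repair and G1 genes rose as well, beside 29.7% higher and 12.6% lower over all genes. DNA repair genes numbered 14 measured, 8 higher and none lower, with a median of 0.43 (6 higher and 1 lower with cycling replicate 3 alone). They included the checkpoint kinase ATR (1.20, SE 0.11, adjusted p = 0.000313) and the helicase BRIP1 (1.18, SE 0.12, adjusted p = 0.000563). CCNE2, cyclin E2, read 6.96, 6.67 and 6.71 against 5.19, 5.30 and 5.66 (1.40, SE 0.14, adjusted p = 0.000488). Among 16 genes of the G1 machinery, 8 were higher and 4 lower (6 and 4 with cycling replicate 3 alone). Those lower were the kinase CDK6 (-0.42) and the cyclin-dependent kinase inhibitors CDKN1A (-0.65, SE 0.05, adjusted p = 0.000198), CDKN1B (-0.53) and CDKN1C (-0.70). Genes of mitosis showed small differences. Of 29, 7 rose (24.1%, below the background of 29.7%) and 1 fell, and with cycling replicate 3 alone 1 rose and none fell. The median was 0.07, and it changed sign on centring, to -0.09 with 2 higher and 8 lower. TOP2A (-0.10, SE 0.07) and the proliferation marker MKI67 (-0.09, SE 0.06) were not called by their brightest probe sets, but 2 dimmer ones of MKI67 were called higher, by up to 1.42. Of the mitosis genes, 3 or 4 rose when cycling replicate 1, 2 or 3 or chronic replicate 1 was left out.

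Replication-dependent histone genes went the other way, beside 12.6% lower and 29.7% higher over all genes. Of 8 measured, 6 fell and none rose, with a median of -0.58, and with cycling replicate 3 alone 5 fell. H2BC5 read 10.69, 10.61 and 10.65 against 11.55, 11.51 and 11.45 (-0.85, SE 0.04, adjusted p = 4.25e-05), and control arrays lay below both groups at 10.09 to 10.14. Histone genes are near-identical copies, so that single members are uncertain.

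**Figure D3:**
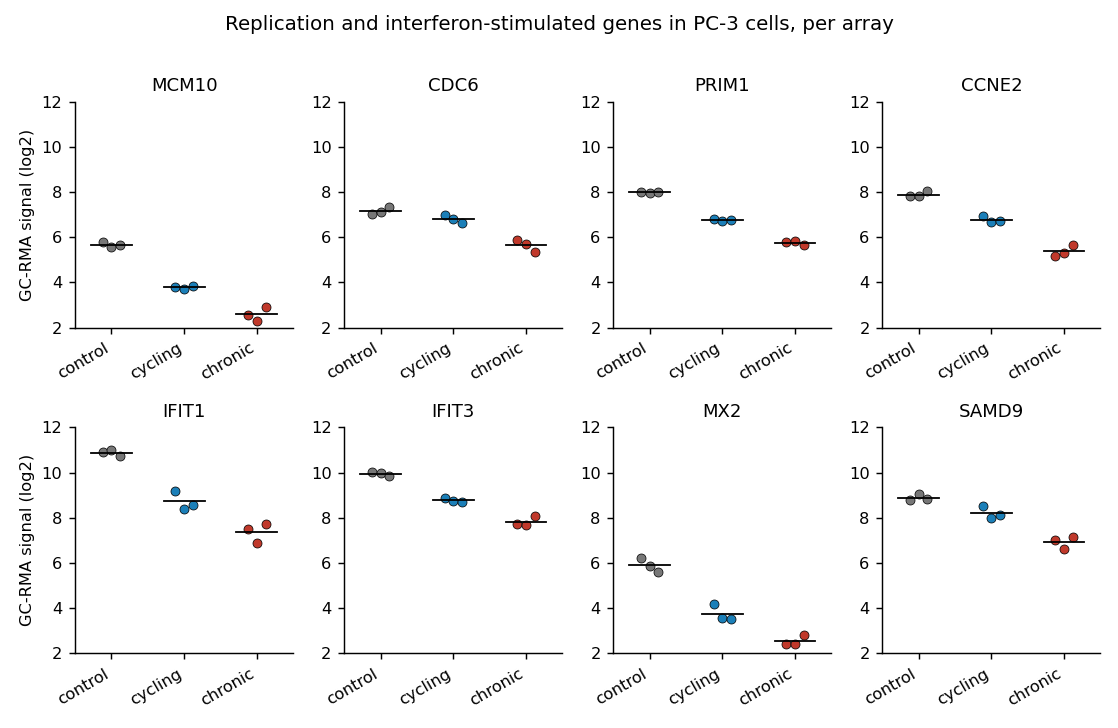
GC-RMA signal (log2, vertical axis) of 4 genes of replication and the cell cycle (top) and 4 interferon-stimulated genes (bottom) on the 3 control, 3 cycling and 3 chronic hypoxia arrays of PC-3 cells, with points for arrays and bars for group means. Every cycling array lies above every chronic array in all 8 panels, as for CDC6 at 6.62 to 6.98 against 5.36 to 5.88.

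Most measured ribosome biogenesis genes rose too, beside 29.7% higher and 12.6% lower over all genes. Of 22 listed, 5 were removed by the variation filter. The removed genes differed by 0.04 (NPM1) to 0.47 (NOP58) without it, so the 12 measured do not stand for the whole list. Of 12 measured, 9 were higher and none lower, the median was 0.63, and with cycling replicate 3 alone 6 were higher. RRS1, a factor for assembly of the large subunit, read 8.82, 8.75 and 8.71 against 6.82, 7.14 and 7.43 (1.63, SE 0.14, adjusted p = 0.000247). POLR1B, the second largest subunit of RNA polymerase I, differed by 1.16 (SE 0.11, adjusted p = 0.000406), and by up to 1.96 in its dimmer probe sets. Subunits of the respiratory chain showed smaller differences, 7 of 13 higher and none lower, with a median of 0.19 that centring reduced to 0.03 with 3 higher and 1 lower. From cycling replicate 3 alone 6 were higher and 1 lower. SDHC and NDUFB3, of complex II and complex I, differed by 0.46 (SE 0.06) and 0.42 (SE 0.04).

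Several cytosolic ribosomal protein genes were lower, and were lowest on the cycling arrays of low 18S signal. Of 32 listed, 14 were removed by the variation filter and 9 were measured. Of these 9, 6 fell, against a background of 12.6%, and none rose, with a median of -1.13. The 14 removed genes showed small differences without the filter, from -0.13 (RPS9) to 0.09 (RPL10A), so the 9 do not stand for the whole list. RPLP2, an acidic stalk protein, read 4.72 and 4.27 on cycling replicates 1 and 2 but 6.93 on replicate 3, and 7.82 to 8.30 on the chronic arrays (-2.79, SE 0.63, adjusted p = 0.0128). RPL27A read 8.38 and 7.80 on the first pair and 9.92 on replicate 3, against 10.21 to 10.73. Of the 9 genes, 3 fell without cycling replicate 1 or chronic replicate 2, and 4 without cycling replicate 2. With replicate 3 alone the RPLP2 difference was -1.17 (adjusted p = 0.023), 3 of the 9 genes fell and the median was -0.58. With the 18S signal as a covariate none of the 9 was called. What part the 18S signal had in these values was not tested.

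**Figure D4:**
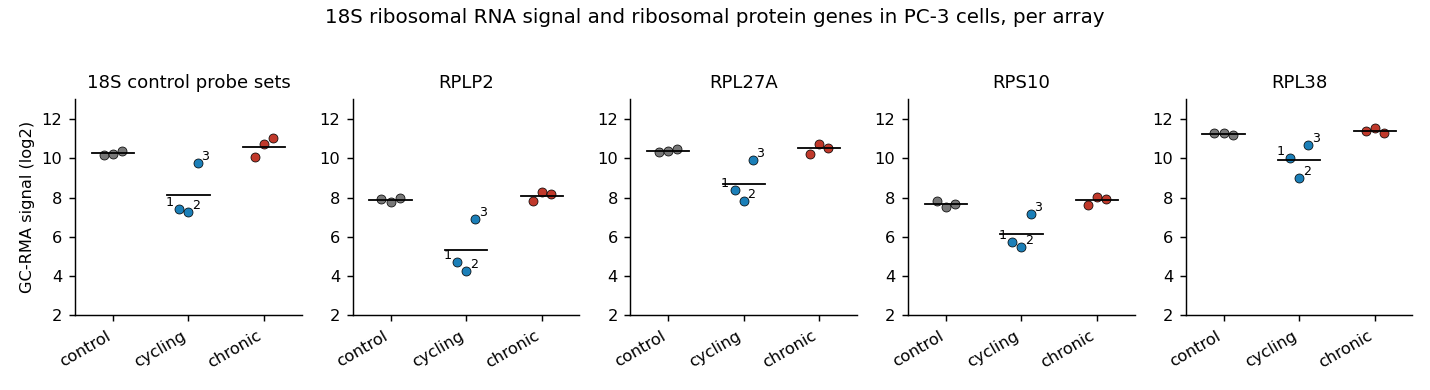
Mean signal of the 18S ribosomal RNA control probe sets and of 4 ribosomal protein genes (log2, vertical axis) on the 3 control, 3 cycling and 3 chronic hypoxia arrays of PC-3 cells. Points are arrays, bars group means and digits the replicate number of the cycling arrays. Cycling replicates 1 and 2 lie below replicate 3 in every panel, as for the 18S signal at 7.42 and 7.25 against 9.73.

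Some interferon-stimulated genes were higher under cycling hypoxia. Of 29 measured, 10 rose and 1 fell, near the background of 29.7% for rises, 6 rose at least 2-fold, and 18 were not called. The median was 0.66. These genes spread widely between replicates. IFIT1, an RNA-binding antiviral protein, read 9.20, 8.41 and 8.56 on cycling and 7.52, 6.88 and 7.74 on chronic arrays (1.34, SE 0.28, adjusted p = 0.00862). IFIT1 did not pass with cycling replicate 3 alone (1.18, adjusted p = 0.0788). IFIT3, its partner, read 8.88, 8.75 and 8.72 against 7.72, 7.67 and 8.08 (0.96, SE 0.11, adjusted p = 0.000888). SAMD9 differed by 1.30 (SE 0.18, adjusted p = 0.00164) and the restriction factor MX2 by 1.21 (SE 0.24, adjusted p = 0.00684). ISG15, the ubiquitin-like modifier, had 12.38, 11.65 and 11.83 against 11.39, 10.82 and 11.54, which did not pass (0.70, SE 0.24, adjusted p = 0.0534). IFI35 rose by 1.82 (SE 0.55, adjusted p = 0.0377) with chronic replicate 2 at 2.76 and the other chronic arrays at 5.09 and 4.46. The IFI35 call was lost when any cycling array or chronic replicate 3 was left out. ISG20, an exonuclease, was lower (-0.28, SE 0.05, adjusted p = 0.00531). On the control arrays IFIT1 stood at 10.72 or higher. With cycling replicate 3 alone 6 of the 29 rose, and with the 18S signal as a covariate 1 did, while the fit on all 27 arrays called 16.

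Promoter windows are shown for one gene each of the replication and interferon lists and for a metallothionein, because each holds its class's known motif more than once. Capitals mark TTTGGCGC or TTTCGCGC, sites of E2F factors, in MCM6. They mark the core of the interferon-stimulated response element (TTTC, any 2 bases, TTTC) in IFIT1 and the core of the metal response element, TGCACNC or TGCGCNC, in MT1X, on either strand.
MCM6 (chr2:135876444-135876693, minus strand): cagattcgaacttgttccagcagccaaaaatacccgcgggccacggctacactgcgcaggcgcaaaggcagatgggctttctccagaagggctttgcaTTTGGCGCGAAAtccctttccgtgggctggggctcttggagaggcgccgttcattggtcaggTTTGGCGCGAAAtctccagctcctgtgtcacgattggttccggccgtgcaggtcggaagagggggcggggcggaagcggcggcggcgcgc
IFIT1 (chr10:89392373-89392622, plus strand): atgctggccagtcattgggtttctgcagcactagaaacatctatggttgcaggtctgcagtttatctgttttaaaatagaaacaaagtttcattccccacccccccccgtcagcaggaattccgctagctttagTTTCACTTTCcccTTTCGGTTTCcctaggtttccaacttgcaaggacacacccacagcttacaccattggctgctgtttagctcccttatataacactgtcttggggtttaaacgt
MT1X (chr16:56682220-56682469, plus strand): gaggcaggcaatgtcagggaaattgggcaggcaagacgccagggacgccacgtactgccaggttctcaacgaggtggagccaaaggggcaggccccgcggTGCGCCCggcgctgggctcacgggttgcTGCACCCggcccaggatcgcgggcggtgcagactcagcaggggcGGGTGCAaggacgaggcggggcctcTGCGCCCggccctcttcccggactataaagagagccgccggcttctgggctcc

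The E2F site stood in 5 of 30 windows of replication genes (16.7%) and in 0.996% of all windows. Of the 21 replication genes with a window that rose, 4 held it. In MCM6 the 4 matches lie in 2 overlapping pairs, each with 1 form on the strand shown and the other form on the opposite strand. MCM6 itself read 9.37, 9.27 and 9.22 against 8.80, 8.86 and 8.83 (0.46, SE 0.04, adjusted p = 0.000321). The interferon core stood in 14 of 23 windows (60.9%) and in 3.07% of all, and 4 of the 6 genes with a window that rose held it. The metal core stood in all 4 windows on hand from the metallothionein list, those of 3 metallothioneins and of the zinc exporter SLC30A1, and in 24.7% of all. For sterol regulatory elements, TCACNCCAC, the counts were 1 of 16 cholesterol genes (6.25%) and 0.875% of all windows. Of the 14 cholesterol genes with a window that fell, 1 held it. For TGATGNAA, the amino acid response core, the counts were 3 of 20 ATF4 genes (15%) and 3.19% of all. None of the 11 ATF4 genes with a window that fell held it.

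Most genes of cholesterol synthesis and uptake were lower under cycling hypoxia. Of 18 measured, 16 fell, 1 rose and 1 was not called, against a background of 12.6% for falls, and the median was -0.45. SQLE, squalene epoxidase, read 11.24, 11.30 and 11.20 against 12.01, 12.05 and 11.97 (-0.76, SE 0.06, adjusted p = 0.000242) by the brightest of 4 probe sets, all of them called lower, down to -1.59. Control arrays of SQLE were lower than both, at 10.32 to 10.57. MVD, of the mevalonate pathway, differed by -1.10 (SE 0.17, adjusted p = 0.00238), the sterol transfer protein STARD4 by -1.0 (SE 0.08, adjusted p = 0.000172) and HMGCS1 by -0.69 (SE 0.09, adjusted p = 0.00164). TM7SF2, a sterol reductase, rose by 0.77 (SE 0.13, adjusted p = 0.00323), and the cyclase LSS was not called (difference 0.00, SE 0.06). When cycling replicate 3 stood alone 12 of the 18 fell, and 10 did so in the fit on all 27 arrays. Fatty acid genes divided, with 2 of 11 higher (18.2%, below the background of 29.7%) and 1, FASN, lower (-0.39, SE 0.05, adjusted p = 0.00101). Their median of 0.05 changed sign on centring, to -0.11 with none higher and 4 lower, and with cycling replicate 3 alone none was higher and 1 lower.

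Part of the genes of ATF4 and the amino acid response were lower as well. Of 24 measured, 12 fell, against a background of 12.6%, 1 rose and 11 were not called. The median was -0.46. DDIT3, the stress factor CHOP, read 9.52, 9.83 and 9.70 against 10.97, 11.06 and 10.92 (-1.30, SE 0.10, adjusted p = 0.000163). NUPR1, a stress-induced nuclear protein, differed by -1.30 (SE 0.07, adjusted p = 6.04e-05) and VLDLR, a lipoprotein receptor, by -1.66 (SE 0.22, adjusted p = 0.00141). The exception was SLC7A11, the cystine transporter, which rose by 0.80 (SE 0.06, adjusted p = 0.000205) and by up to 1.21 in its dimmer probe sets. CHAC1 (-0.01, SE 0.13), PSAT1 (0.09) and SHMT2 (0.03) were not called. With cycling replicate 3 alone 7 fell. Endoplasmic reticulum chaperones were mostly not called, 11 of 17, and 5 fell, CALR the most (-0.65, SE 0.10, adjusted p = 0.00269). That count was 12 after centring, 2 after quantile normalization 3 without cycling replicate 2 or 3 or chronic replicate 3, and 1 with cycling replicate 3 alone.

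Of 7 metallothioneins measured, which bind zinc and copper, 6 fell, against a background of 12.6%, and none rose. Their list of 8 genes also held the zinc exporter SLC30A1, which was not called (-0.012, SE 0.08), and had a median of -0.48. MT1X read 11.10, 11.41 and 11.23 against 11.58, 11.86 and 11.77 (-0.49, SE 0.11, adjusted p = 0.0116). The groups did not overlap in these 6, where the background was 16.8% for cycling below. With cycling replicate 3 alone 1 gene of the list was lower, in the fit on all 27 arrays 2 were, and none was with the 18S covariate. The genes are near-identical, so that probe sets may share their transcripts. Iron genes included lower HMOX1, heme oxygenase 1 (-0.71, SE 0.15, adjusted p = 0.00858), and higher NCOA4, the cargo receptor of ferritin (0.53, SE 0.04, adjusted p = 0.000228).

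Among the genes measured by qRT-PCR in the study, CXCL8 and CXCL2 were not called by their brightest probe sets. CXCL8, interleukin 8, read 12.30, 12.13 and 12.24 under cycling and 12.56, 12.44 and 12.38 under chronic hypoxia (-0.24, SE 0.11, adjusted p = 0.127). Its second probe set was called lower (-0.50, SE 0.11, adjusted p = 0.0133). CXCL2 read 9.19, 9.49 and 9.33 against 9.40, 9.21 and 9.22 (0.06, SE 0.17, adjusted p = 0.852). All arrays of both groups stood above the control arrays, 9.68 to 10.09 and 7.0 to 7.60. Of 18 chemokines and interleukins 15 were not called, LIF and IL1B rose by 0.69 and 0.34, and IL15 was lower (-0.56), while with cycling replicate 3 alone 1 was higher and none lower. The IL1B call was lost without cycling replicate 2 or 3 or chronic replicate 1 or 3, and the IL15 call without cycling replicate 1 or 3 or any chronic array. Both shares of this list were below those over all genes, 11.1% beside 29.7% for rises and 5.56% beside 12.6% for falls.

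The protease gene PLAU, urokinase, read 12.68, 12.89 and 13.01 against 12.14, 12.15 and 12.29 and was higher under cycling (0.67, SE 0.09, adjusted p = 0.00174). Its receptor PLAUR was lower (-0.57, SE 0.07, adjusted p = 0.00119). EPHA2, an ephrin receptor, rose by 0.34 (SE 0.06, adjusted p = 0.00386), a call lost on centring and with cycling replicate 3 alone, and HBEGF did not pass by its brightest probe set (0.34, SE 0.12, adjusted p = 0.0613) but did by its dimmer one (0.46, SE 0.13, adjusted p = 0.0294). BTC, betacellulin, a ligand of the EGF receptor, rose by 1.24 (SE 0.10, adjusted p = 0.000185). Of 14 NF-kB subunits and feedback genes 6 fell, against a background of 12.6%, and none rose. ICAM1, an adhesion molecule, was at -0.74 (SE 0.12, adjusted p = 0.00331). With cycling replicate 3 alone 3 of them fell, and after centring 10.

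Feedback genes of ERK signalling and early response genes divided, with 11 of 24 lower, 3 higher and 10 not called, and 4 lower and 2 higher with cycling replicate 3 alone. Over all genes 12.6% were lower and 29.7% higher. DUSP1, a nuclear phosphatase of MAP kinases, read 10.33, 10.62 and 10.45 against 11.73, 11.57 and 11.53 (-1.14, SE 0.12, adjusted p = 0.000531). Its relative DUSP4 read 12.99, 12.99 and 12.98 against 11.91, 11.76 and 11.67 (1.21, SE 0.08, adjusted p = 9.2e-05), and a further DUSP4 probe set was called the other way, at -0.46. KLF4, a factor of epithelial differentiation, differed by -1.34 (SE 0.05, adjusted p = 3.86e-05). FOS and EGR1, the classical immediate early genes, spread within the groups and did not pass, with FOS at 7.13 to 7.31 against 6.43 to 7.72 (0.22, SE 0.42, adjusted p = 0.741) and EGR1 at 7.53 to 8.01 against 6.68 to 7.78 (0.59, SE 0.51, adjusted p = 0.41).

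Whether in a list or not, the 15 genes with the largest rises and the 15 with the largest falls were taken from 253 and 113 genes called at least 2-fold, with no overlap of arrays and a higher mean above 5. SSTR5-AS1, an antisense RNA, led the rises at 7.44, 6.61 and 7.38 against 5.27, 4.15 and 3.91 (2.70, SE 0.38, adjusted p = 0.00189). PHACTR3, a regulator of protein phosphatase 1, read 9.96, 9.87 and 9.86 against 7.95, 7.71 and 7.90 (2.04, SE 0.06, adjusted p = 1.73e-05). PPP1R10, another partner of that phosphatase, differed by 1.97 (SE 0.16, adjusted p = 0.000233), the arginine methyltransferase PRMT6 by 2.00 (SE 0.24, adjusted p = 0.001) and the transcription factor FOXQ1 by 1.88 (SE 0.13, adjusted p = 0.000132). TRERF1, a zinc finger factor, differed by 2.23 (SE 0.20, adjusted p = 0.000289), but its second probe set was called the other way, at -1.43. The others were PLPPR5, DOLK, IFIT5, C1orf116, CCDC141, ZNF347, FUT8-AS1, NAT1 and PLPP6, with differences of 1.83 to 2.17. Among the falls not yet described were KLF7 (-2.48, SE 0.13), the keratin KRT16 (-2.41, SE 0.23), the glycogen-targeting subunit PPP1R3B (-2.25, SE 0.14), the sodium channel subunit SCNN1G (-2.24, SE 0.21), TCP11L2 (-2.17, SE 0.20) and ITPR1-DT (-2.12, SE 0.18). The matrix protein SPARC, a member of a list, was higher (1.45, SE 0.26, adjusted p = 0.00508), though not with cycling replicate 3 alone (1.34, adjusted p = 0.0987), and the retinoic acid receptor RARA lower (-1.70, SE 0.07, adjusted p = 4.25e-05).

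The PC-3 difference was then set against those of the other cell lines, which share no arrays with it and grew in other media. It differed from that of SK-OV-3 cells for 5628 probe sets (28.4%) and from that of WM793B cells for 2135 (10.8%), and from both for 1080 (5.45%). Among the 10021 genes these shares were 30.5% and 12%. Within the other lines, 16.4% of probe sets were higher and 14.1% lower under cycling in SK-OV-3 cells, and 8.13% higher and 6.95% lower in WM793B cells. Across the 19800 probe sets the differences correlated with r = 0.20 between PC-3 and SK-OV-3 cells and r = 0.42 between PC-3 and WM793B cells, as a description over genes, which are not replicates. Many HIF-induced genes fell less in PC-3 than in SK-OV-3 cells. Of the 38, 24 differed between the lines, 22 of them with the PC-3 value above and 2 below, where the backgrounds were 19.6% and 10.9%. The list's median was -0.88 for PC-3, -1.30 for SK-OV-3 and -1.04 for WM793B. Against WM793B cells 8 differed, 4 in each direction, with backgrounds of 8.14% above and 3.86% below.

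**Figure D5:**
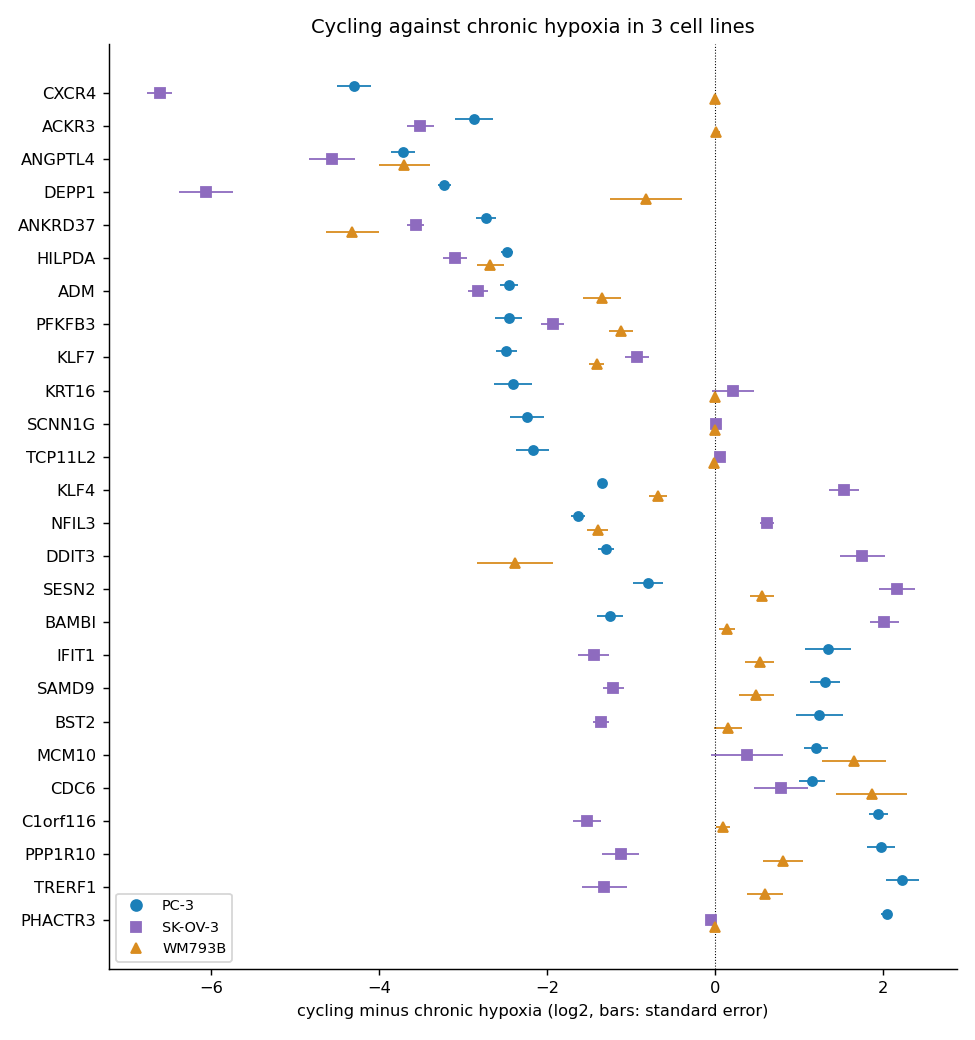
Difference of cycling minus chronic hypoxia (log2, horizontal axis) of 26 genes in PC-3, SK-OV-3 and WM793B cells, with bars for limma's standard error (3 arrays per group). ANGPTL4, ANKRD37 and HILPDA lie left of 0 in all 3 lines, whereas KLF4, NFIL3 and DDIT3 are below 0 in PC-3 and above 0 in SK-OV-3 cells.

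Single targets of HIF differed between the lines by gene. ANGPTL4 differed by -3.72 (PC-3), -4.56 (SK-OV-3) and -3.70 (WM793B), values that were not told apart (adjusted p = 0.0677 and 0.997). CXCR4 fell more in SK-OV-3 cells (-6.61, adjusted p of the difference = 1.36e-05) than in PC-3 cells. In WM793B cells all its cycling and chronic arrays were at the lowest value of 2.28, so that no difference could show there. HK2 fell by 3.64 on the log2 scale in SK-OV-3 cells, more than in PC-3 cells (adjusted p of the difference = 2.27e-05). PDK1, not called in PC-3 cells, fell by 0.94 and 0.95 in the other lines, and both differences from PC-3 passed (adjusted p = 0.013 and 0.0281). HIF1A rose by 0.94 in SK-OV-3 cells, beside 0.96 in PC-3 cells (adjusted p of the difference = 0.959), and was not called in WM793B cells (-0.10, adjusted p of the difference = 6.9e-05).

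Many interferon and ATF4 genes differed between PC-3 and SK-OV-3 cells. Of 29 interferon-stimulated genes 22 differed, all with the PC-3 value above, against a background of 19.6%, and 8 differed from WM793B cells, all above as well. IFIT1 had -1.45 (SE 0.19, adjusted p = 0.00159) in SK-OV-3 and 0.53 (SE 0.17, adjusted p = 0.0771) in WM793B cells, and the PC-3 value of 1.34 was higher than the first (2.79, SE 0.29, adjusted p = 7.67e-06) and not told apart from the second (adjusted p = 0.0877). Of 24 ATF4 genes 17 differed from SK-OV-3 cells, all with the PC-3 value below, against a background of 10.9%, and 1 from WM793B cells. DDIT3 rose in SK-OV-3 cells by 1.75 (SE 0.27), opposite to PC-3 cells (adjusted p of the difference = 0.000219), and SESN2, a stress-induced inhibitor of mTORC1, by 2.16 (SE 0.22, adjusted p of the difference = 2.03e-06). KLF4 and NFIL3, a clock-linked repressor, also had opposite signs, with 1.54 and 0.62 in SK-OV-3 against -1.34 and -1.63 in PC-3 cells (adjusted p of the difference = 3.65e-07 and 2.16e-07).

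For replication genes, against SK-OV-3 cells 10 of 35 differed, all with the PC-3 value above (background 19.6%), and against WM793B cells 2, both below (background 3.86%). The list's median was 0.50 for PC-3, -0.15 for SK-OV-3 and 0.66 for WM793B. MCM10 (1.65) and CDC6 (1.86) in WM793B cells were not told apart from the PC-3 values (adjusted p = 0.686 and 0.439). Of the 18 cholesterol genes, whose median was 0.10 in WM793B cells, 6 differed from that line, all with the PC-3 value below (background 3.86%). SQLE was among them, with 0.28 in WM793B cells (adjusted p of the difference = 0.00471). CXCL8 and CXCL2, not called in PC-3 cells, were higher under cycling hypoxia in SK-OV-3 cells by 1.89 and 3.07 (adjusted p of the difference = 3.75e-07 and 8.21e-05).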

How the data were processed

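RNA was hybridised to 27 one-colour arrays of 3 cell lines, of which the 9 PC-3 arrays entered the main test. The authors made the values from the scans with GC-RMA, which corrects background by probe sequence and normalizes the arrays together, and deposited them on the log2 scale. The lowest value that this processing gave to any array was 2.28. Some probe sets repeat a higher value exactly, such as CRY2 at 4.68 on every cycling and chronic PC-3 array and RARG at 6.51 on every cycling one. Differences of dim probe sets are therefore understated, and a signal above 5 can also be such a repeated value. Of 54675 probe sets, 19800 that deviated at least 1.5-fold from their median on at least 20% of the arrays were kept, after the study's own filter. Their symbols come from GEO's platform annotation (17314 with 1 gene, 811 with several and 1675 with none). Each of 10021 genes was read by its kept probe set with the highest mean over the PC-3 arrays. List entries with no probe set of their own in the annotation used are not reported here.

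The difference of cycling minus chronic hypoxia was tested with limma 3.58.1 in R 4.3.3, adjusted after Benjamini-Hochberg over the 19800 probe sets and called at an adjusted p under 0.05. Differences between cell lines were tested as interactions on the 18 arrays of cycling and chronic hypoxia. The code was tested on simulated data. Number of arrays limits the precision. Replicate numbers were not used as pairs in the main test. Deviations of same-numbered cycling and chronic PC-3 arrays correlated at 0.15, 0.00 and 0.07. The labels do not say whether same-numbered cultures were handled together.

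Named are the 15 genes with the largest rise and the 15 with the largest fall (at least 2-fold, no overlap, higher mean above 5), up to 4 called genes of each list, the genes measured by qRT-PCR, a set of hypoxia markers, and list members that did not pass. Other list members are named for their function, with their values known. The comparison, the 43 gene lists and the tests were chosen with earlier results of these data known. Alternatives covered the filter, the scaling, dim values, the arrays in the fit, the prior variance, a replicate block, the 18S signal as a covariate, the probe sets of a gene and each array left out. Promoter sequences are RefSeq's for GRCh38.p14, cut to 250 bases before the start.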

Additional observations from a re-analysis of the deposited data

Results flagged for a closer look

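The difference of cycling minus chronic hypoxia in PC-3 cells was tested against that of each other line, gene by gene, for the 40 genes named for their size or for their use as qRT-PCR or hypoxia markers. It differed from SK-OV-3 cells for 32 of them and from WM793B cells for 30, where the shares over all genes were 30.5% and 12%. Since 30 of the 40 were chosen for the size of their PC-3 difference, these counts are a description and not a test. On arrays of cycling and chronic hypoxia, 10 of the 32 did not pass a log2 signal of 5 on any array of SK-OV-3 cells, and 16 of the 30 on any of WM793B cells. For most of those genes the value restates the PC-3 difference against a line in which little or no change could show. TRERF1 was an exception in SK-OV-3 cells, where it was called lower (-1.32, adjusted p = 0.00947) although its arrays lay at 2.59 to 4.61. The values below are the PC-3 difference minus that of the other line (log2).

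Against SK-OV-3 cells, the PC-3 value was higher by 2.69 for SSTR5-AS1, 3.55 for TRERF1, 2.27 for PLPPR5, 2.09 for PHACTR3, 1.04 for PRMT6, 1.91 for IFIT5, 3.10 for PPP1R10, 3.47 for C1orf116, 1.93 for CCDC141, 1.36 for ZNF347, 1.74 for NAT1 and 1.45 for PLPP6. Among genes that were lower or not called in PC-3 cells it was higher by 2.32 for CXCR4, 2.83 for DEPP1, 0.64 for ACKR3, 0.83 for ANKRD37, 0.62 for HILPDA, 1.92 for NDRG1, 1.02 for BNIP3, 0.71 for SLC2A1 and 0.83 for PDK1. It was lower for RPLP2 (-2.64), KLF7 (-1.56), KRT16 (-2.62), PPP1R3B (-1.45), SCNN1G (-2.25), TCP11L2 (-2.23) and ITPR1-DT (-2.13). Lower values were also found for 4 of the genes measured by qRT-PCR, CXCL8 (-2.13), HBEGF (-1.85), EPHA2 (-0.95) and CXCL2 (-3.01), while PLAU was not told apart (adjusted p = 0.398). The genes under a signal of 5 in SK-OV-3 cells were SSTR5-AS1, TRERF1, PLPPR5, PHACTR3, CCDC141, PLPP6, KRT16, SCNN1G, TCP11L2 and ITPR1-DT. TRERF1, PPP1R10 and C1orf116 were called in opposite directions in the 2 lines.

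Against WM793B cells, the PC-3 value was higher by 2.68 for SSTR5-AS1, 1.64 for TRERF1, 1.84 for PLPPR5, 2.04 for PHACTR3, 0.97 for PRMT6, 1.10 for DOLK, 1.66 for IFIT5, 1.16 for PPP1R10, 1.85 for C1orf116, 1.93 for CCDC141, 1.67 for ZNF347, 1.87 for FUT8-AS1, 2.20 for FOXQ1 and 1.46 for PLPP6. It was also higher by 1.59 for ANKRD37, 0.96 for PLAU, 1.81 for CXCL2 and 0.84 for PDK1. It was lower for CXCR4 (-4.30), DEPP1 (-2.41), ACKR3 (-2.89), RPLP2 (-3.50), KLF7 (-1.07), PFKFB3 (-1.33), ADM (-1.11), KRT16 (-2.41), PPP1R3B (-1.03), SCNN1G (-2.24), TCP11L2 (-2.17) and ITPR1-DT (-1.74). The genes under a signal of 5 in WM793B cells were SSTR5-AS1, TRERF1, PLPPR5, PHACTR3, C1orf116, CCDC141, ZNF347, FUT8-AS1, FOXQ1, CXCR4, ACKR3, KRT16, SCNN1G, TCP11L2, ITPR1-DT and PLAU. The value for RPLP2 in both comparisons includes the PC-3 arrays of low 18S signal, and cycling replicates 1 and 2 were also the lowest of the cycling arrays in the other lines.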

How the results depend on the processing

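The count of 7518 probe sets fell to 2460 (1598 higher, 862 lower) with the 18S signal as a covariate, and to 3732 (2474 and 1258) with cycling replicate 3 alone, a setting chosen after seeing the data, which tests a single cycling array and assumes that it varies like the other groups. Centring the arrays gave 3134 higher and 5848 lower. At 2-fold, raising values under 5 left 509 (268 higher, 241 lower), quantile normalization left 348 higher, centring 338 higher and 566 lower, and the 18S covariate 357 higher. The cause of these shifts was not tested. Of 307 calls over the gene lists, 119 were made with the 18S covariate and 172 with replicate 3 alone. Leaving out 1 array gave 6158 to 6752 calls, and 906 to 1024 at 2-fold.

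With the replicate number as a block, 4673 were higher and 2353 lower (579 and 351 at 2-fold), and no count over all probe sets moved by 1.5 times. Counts that differ between cell lines stayed within 1.5 times in the alternatives run, 4791 to 6130 against SK-OV-3 and 1473 to 2956 against WM793B cells. Centring, the 18S covariate and cycling replicate 3 alone, which moved the counts within PC-3 cells, were not run for these counts. Of 175 named genes called, 72 kept call and direction in the 17 alternatives planned. Signs turned for CD44 (-0.12) and CDKN2B (-0.026) with the mean of the probe sets and for DHRS3 (0.039) with the 18S covariate. Dim probe sets near the lowest value limit the sizes of the differences.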

Other observations

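Other gene lists of PC-3 cells divided between the directions, beside 29.7% higher and 12.6% lower over all genes. Among 13 circadian clock genes 5 were higher and 3 lower under cycling hypoxia, with CLOCK, the core activator, at 0.89 and NFIL3 at -1.63. After centring 2 were higher and 4 lower, and with cycling replicate 3 alone 2 and 2. Of 16 targets of p53, 6 were higher (37.5%) and 3 lower (18.8%), with a median of 0.29, and after centring 5 were higher and 5 lower. With cycling replicate 3 alone these counts were 5 and 1. Of 19 targets of NRF2 and antioxidant enzymes 7 were higher and 6 lower, and with cycling replicate 3 alone 5 were higher and none lower. Their median was 0.00, and centring turned it to -0.16. In the BCL2 family 4 of 12 were higher (33.3%) and 1, the pro-apoptotic BIK, was lower (-1.51). After centring 1 was higher and 3 lower and the median turned from 0.05 to -0.11, while none was called with cycling replicate 3 alone or with the 18S covariate. Matrix and collagen genes had 7 higher and 9 lower of 31, with a median difference of 0.00 that centring moved to -0.16, beside 0.09 over all genes. With cycling replicate 3 alone, 1 of the matrix genes was higher and 6 lower.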
